A study of Mus musculus with 32 samples.

Results

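The 150 genes described here are long noncoding RNA genes of the NONCODE catalogue that were almost silent in the testis germ cells of young mice and had a mean of at least 6.85 TPM at 18 days post partum (dpp). They were chosen by their measured levels: among the 20368 genes of the juvenile table, which holds 5117 other NONCODE genes beside them, 603 NONCODE genes were under 1 TPM in each of the 8 mice aged 8 and 10 dpp, and the 150 of these with the highest mean TPM at 18 dpp were taken. TPM is the share of a gene among all transcripts of its sample, corrected for transcript length and scaled so that every sample has the same total. The levels at 8, 10 and 18 dpp are therefore given as a description and were not tested. The mice of 12, 14 and 16 dpp and the adult samples took no part in the choice. The ages 12, 14 and 16 dpp nevertheless all lie between ages that did, and a rise somewhere between 10 and 18 dpp followed from the choice.

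The study followed the first wave of spermatogenesis, in which germ cells of successive ages reach successive substages of meiosis. Germ cells were isolated from both testes of single male C57BL/6J mice at 8 dpp (3 mice) and at 10, 12, 14, 16 and 18 dpp (5 mice each), 28 mice in all, and poly-A RNA was sequenced. A second table holds 4 samples of pachytene and diplotene spermatocytes enriched by STA-PUT sedimentation, which sorts cells by size, each pooled from the testes of 6 C57BL/6J mice of 9 weeks. All mice were untreated and carried no engineered allele in the descriptions used here. Mice of one age are separate animals, and each juvenile sample is a mixture of cell types.

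A long noncoding RNA is a transcript that resembles an mRNA in being capped, spliced and polyadenylated in many cases, but has no known protein product. NONCODE collects such transcripts from many sources and names them by number, so a catalogue entry carries no statement of function. In the mouse testis, spermatocytes that enter the pachytene stage of meiotic prophase, when homologous chromosomes are fully paired, transcribe a large part of the genome, including long precursors of piRNAs, the small RNAs bound by PIWI proteins, and many genes whose products are used later by sperm. The positions, strands and sequences of these 150 genes were not analysed here, so whether any of them overlaps or lies antisense to another gene is not known from these data.

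Marker genes of other cell types were measured in every sample. The summed TPM of 8 Sertoli cell markers, genes of the somatic cells that nurse the germ cells, was between 5445 and 7606 in the mice of 16 dpp and between 321 and 470.0 in the adult samples. For Leydig cells, the steroid-producing cells between the tubules, the sum over 6 markers was between 169 and 472 TPM at 18 dpp. It was between 206 and 270 TPM in the adult samples, where most of it was Insl3. That gene had means of 112 TPM at 18 dpp and 176 TPM in the adult samples. All other Leydig markers had lower means in the adult samples than at 18 dpp. Hsd3b1 had 7.58 against 60.0 TPM, Cyp11a1 13.7 against 39.1 TPM and Cyp17a1 28.8 against 36.0 TPM. Protamine and transition protein genes, which mark spermatids, were near 0 in all juvenile ages: Prm1 had a mean of 0.284 TPM and Prm2 of 0.114 TPM at 18 dpp. The adult samples held 209 TPM of Prm1 and 270 TPM of Prm2, and the sum over 6 spermatid markers was between 872 and 1189 TPM there against 6.13 to 17.0 TPM at 18 dpp. The part of spermatid and Leydig cell RNA in the adult levels given below was not tested. TPM keeps no record of read depth, so no counting error can be attached to a value, and each level is relative to all other RNA of its sample.

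Together the 150 genes made up a very small share of the RNA until 14 dpp and then climbed. At 8 dpp their summed level was 19.4 TPM ± 2.87 (SD, n = 3), and 2 days later it was 20.2 TPM ± 2.76 (SD, n = 5). In the mice of 12 dpp it was 95.1 TPM ± 29.1, and in those of 14 dpp 195 TPM ± 45.8 (SD, n = 5 each). At 16 dpp it reached 1142 TPM ± 400 and at 18 dpp 3562 TPM ± 1164 (SD, n = 5 each), which is 0.356% of all transcripts. The step from 14 to 16 dpp, 5.87-fold, was the steepest of the 3 steps after 12 dpp, against 2.05-fold from 12 to 14 dpp and 3.12-fold from 16 to 18 dpp. In these mixed samples, more cells of a type and more RNA per cell cannot be told apart.

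**Figure D1:**
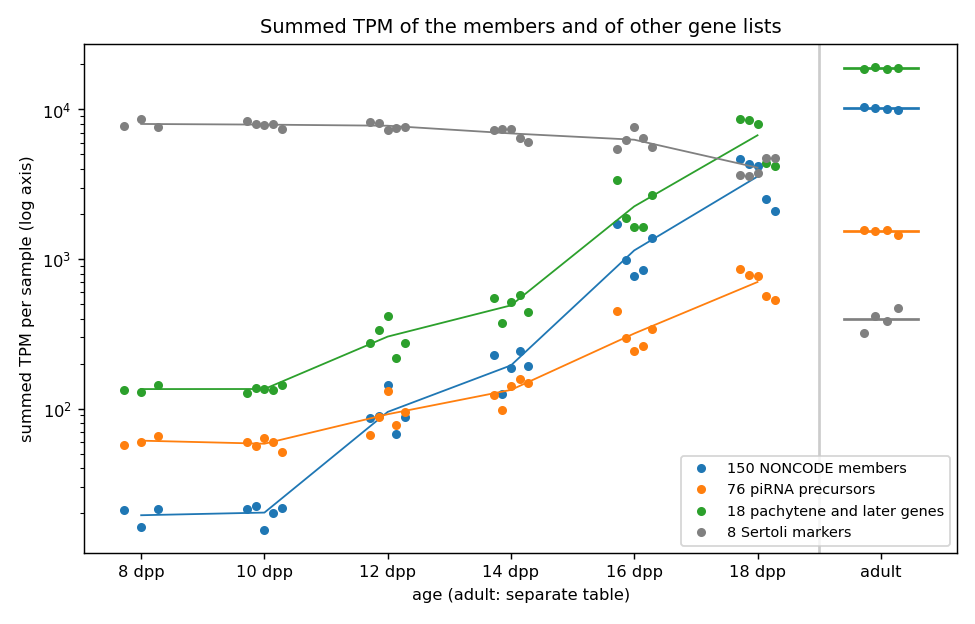
Summed TPM per sample (log axis) of the 150 NONCODE genes, 76 piRNA precursors, 18 pachytene and later protein-coding genes and 8 Sertoli markers, by age. Each point is a sample, lines join the age means, and short bars mark the adult means, which come from a separate table. The NONCODE genes rise from 19.4 TPM at 8 dpp to 3562 TPM at 18 dpp, while the Sertoli markers fall.

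The summed level was spread over many genes. A rise by 18 dpp in each member followed from the way they were chosen. The 10 most abundant members at 18 dpp held 26.3% of the members' summed TPM at 16 dpp, 26.5% at 18 dpp and 25.2% in the adult samples. The median member had a mean of 0.378 TPM at 12 dpp, 0.691 TPM at 14 dpp and 4.39 TPM at 16 dpp, and of 15.6 TPM at 18 dpp, where means ran from 6.85 to 159 TPM. The limit at rank 150 cut through a continuous series. NONMMUG014424, NONMMUG003474 and NONMMUG003025 lay just inside it with means of 7.11, 7.03 and 6.85 TPM at 18 dpp, and NONMMUG038177, NONMMUG043862 and NONMMUG035862 lay just outside with 6.83, 6.83 and 6.80 TPM.

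The members did not all appear at the same age. At 12 dpp, 11 of the 150 had at least 1 TPM in every mouse. By 14 dpp this held for 27, by 16 dpp for 127 and by 18 dpp for all 150, so that the limit was first met at 12 dpp by 11 genes, at 14 dpp by 16, at 16 dpp by 100 and at 18 dpp by 23. Conversely, 93 members had no mouse at 1 TPM at 12 dpp, 63 had none at 14 dpp and 0 had none at 16 dpp. The sizes of these 4 groups depend on the limit: with at least 3 TPM in every mouse they were 2, 5, 55 and 78, and 10 members met it at no age.

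**Figure D2:**
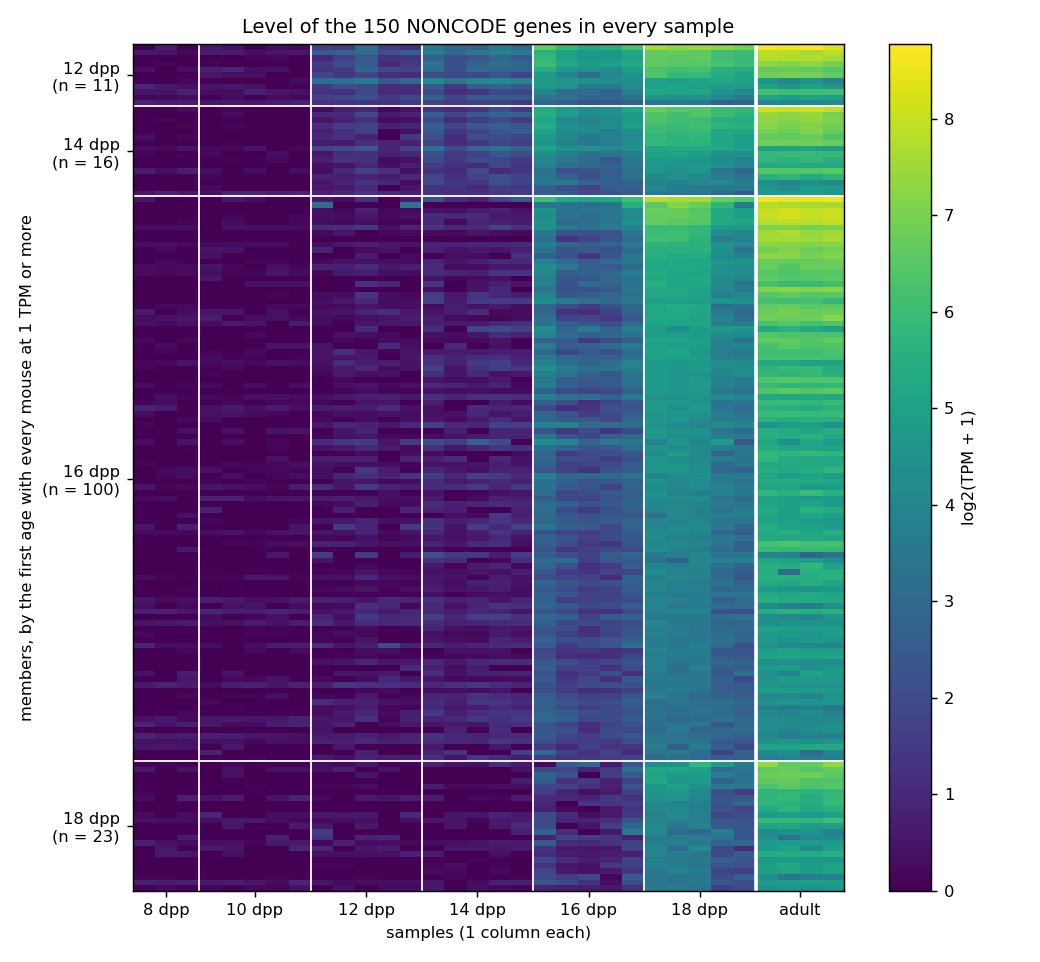
Level of each of the 150 NONCODE genes (rows) in every sample (columns) as log2(TPM + 1), grouped by the first age at which every mouse had 1 TPM or more (11, 16, 100 and 23 genes) and, within a group, by mean TPM at 18 dpp. The colour step between 14 and 16 dpp runs through nearly all rows, and mice 4 and 5 of 18 dpp are darker than mice 1 to 3.

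The comparison of 16 with 14 dpp was made to see how far the choice of members at other ages carried over to mice it had not used. Of the 150 genes, 143 were higher at 16 than at 14 dpp (limma on log2(TPM + 1), Benjamini-Hochberg adjusted over all 20368 genes) and 0 were lower. Over all genes tested, 13.9% were called higher. The fitted change was positive in 150 of 150 members, with a median of 1.59 on the log2(TPM + 1) scale, quartiles of 1.16 and 2.05 and a range from 0.53 to 3.89. This scale understates the change of genes near 0. The median over all genes was -0.06, and 8268 of the 20368 changes were positive. In 133 members all 5 mice of 16 dpp lay above all 5 mice of 14 dpp, a separation that 10.7% of all genes showed.

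The other classes are given beside the members from the same fit. Of the 5117 other NONCODE genes, 413 were called higher (8.07%) and 336 lower, with a median change of -0.08. Of the 453 other NONCODE genes that were also under 1 TPM at 8 and 10 dpp, 184 were higher and 1 was lower. Among 76 piRNA precursors 56 were higher and 1 was lower, with a median of 0.77, and among 269 Ensembl lincRNA genes 72 were higher and 16 lower. The Ensembl genes as a whole had 2220 higher and 2282 lower of 15025. The members had been picked for a rise by 18 dpp, so no test was made between the classes. The 453 genes were not unselected either. They were under 1 TPM at 8 and 10 dpp, and the juvenile table keeps genes that reach 3 TPM in at least 1 mouse. Each of them therefore had to reach that level in a mouse of a later age. The split of calls over all genes, 2832 higher against 2619 lower, was sensitive to scaling: with median-of-ratios scaling it was 3252 against 1604 and with quantile normalization 2561 against 3767, while 143 and 134 of the members were called higher, respectively.

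**Figure D3:**
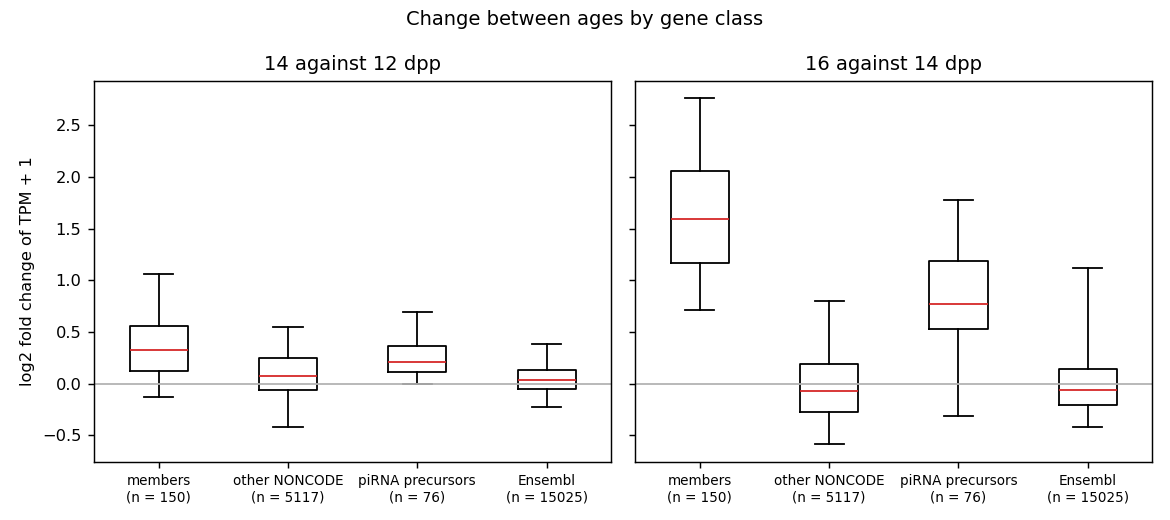
Log2 fold change of TPM + 1 from 12 to 14 dpp and from 14 to 16 dpp for the 150 members, 5117 other NONCODE genes, 76 piRNA precursors and 15025 Ensembl genes. Boxes show the quartiles with the median in red and whiskers the 5th and 95th percentiles over genes. The members' box at 16 against 14 dpp, from 1.16 to 2.05, lies above the boxes of the other NONCODE and Ensembl genes. It overlaps the box of the piRNA precursors, from 0.52 to 1.19.

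Between 12 and 14 dpp the members drifted upward without any single call. Their median change was 0.33 on the log2(TPM + 1) scale, against 0.04 over all genes. Changes were positive in 128 of 150 members and in 12547 of all 20368 genes. Among the 76 piRNA precursors the median was 0.21 and 70 changes were positive. limma called 0 members and, at 0.0%, 0 of all 20368 genes higher at 14 dpp. At an unadjusted p under 0.05 in limma, 53 members and 24 piRNA precursors were higher, beside 8.01% of all genes. In 20 members all 5 mice of 14 dpp lay above all 5 of 12 dpp, a separation seen in 12 piRNA precursors and in 1.56% of all genes. When all 28 mice shared one estimate of the spread, 10 members and 32 genes in all (0.157%) were called higher. The sequencing indices used at 8, 10 and 12 dpp began again at 14 dpp, so this comparison crosses the 2 index series and the comparison of 16 with 14 dpp does not. Age and index series cannot be told apart between 12 and 14 dpp.

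The most abundant member at 18 dpp, NONMMUG034231, is an example of the late, steep rise. Its values were 0.50, 0.26, 1.34, 0.00 and 0.64 TPM in the 5 mice of 12 dpp and 3.49, 1.18, 0.71, 2.39 and 4.17 TPM at 14 dpp. At 16 dpp they were 64.2, 37.8, 32.1, 36.0 and 66.6 TPM, and at 18 dpp 226, 188, 192, 103 and 88.0 TPM. The ages 14, 16 and 18 dpp did not overlap, and mice 1 and 5 were the highest at 16 dpp. The change from 14 to 16 dpp was 3.89 on the log2(TPM + 1) scale (SE 0.32, limma adjusted p = 1.7e-06), the largest among the members. In the adult samples the level was 371 TPM ± 14.1 (SD, n = 4).

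NONMMUG035738, the second by level at 18 dpp, was detectable earlier. It had 2.15, 1.88, 7.75, 2.04 and 1.44 TPM at 12 dpp, and 10.4, 6.85, 5.84, 11.6 and 6.42 TPM at 14 dpp. At 16 dpp the 5 mice had 100, 56.5, 36.4, 44.0 and 73.4 TPM. One mouse of 12 dpp, at 7.75 TPM, reached into the range of 14 dpp, whereas 16 dpp lay wholly above 14 dpp. The change from 14 to 16 dpp was 2.73 (SE 0.34, limma adjusted p = 3.8e-05), and the adult mean, 384 TPM ± 54.1 (SD, n = 4), was the highest of all members.

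**Figure D4:**
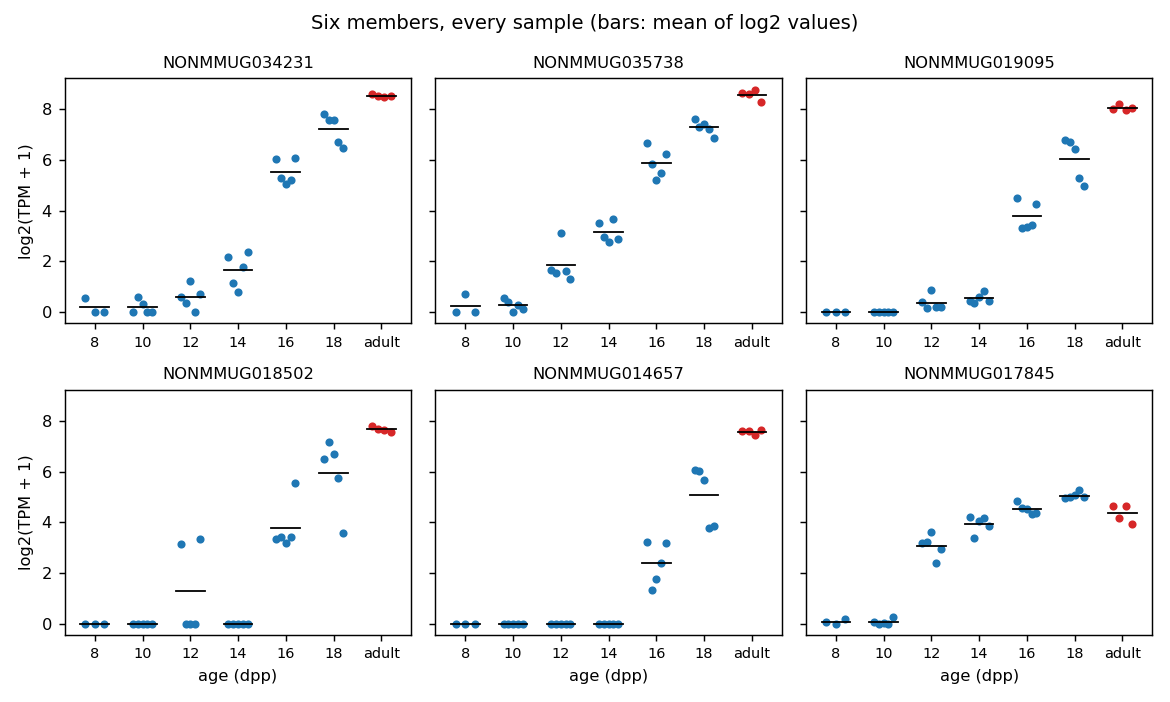
log2(TPM + 1) of 6 members in every sample, by age (blue) and in the adult samples (red); bars mark the mean of the log2 values. NONMMUG034231, NONMMUG035738 and NONMMUG019095 climb from 14 dpp on, NONMMUG018502 and NONMMUG014657 are listed at 0 in every mouse of 14 dpp, and NONMMUG017845 climbs from 12 dpp and is lower in the adult samples than at 18 dpp.

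Beside NONMMUG034231, the members of largest change from 14 to 16 dpp without overlap were NONMMUG018502, treated below, NONMMUG020166, NONMMUG019095 and NONMMUG010430. NONMMUG020166 went from 1.52, 1.05, 1.71, 3.20 and 1.77 TPM at 14 dpp to 27.9 TPM ± 9.63 at 16 dpp (SD, n = 5; highest mice 41.1 and 34.4 TPM), a change of 3.32 (SE 0.24, limma adjusted p = 1.4e-06). NONMMUG019095 was listed at 0 in every mouse of 8 and 10 dpp, was at 0.29 to 0.79 TPM at 14 dpp and had 21.9, 8.97, 9.25, 9.88 and 18.1 TPM at 16 dpp, a change of 3.24 (SE 0.23, limma adjusted p = 1.4e-06). In both genes mice 1 and 5 were again the highest of 16 dpp. NONMMUG010430 rose from 0.666 TPM ± 0.328 at 14 dpp to 13.3 TPM ± 6.76 at 16 dpp (SD, n = 5 each), by 2.99 (SE 0.27, limma adjusted p = 2.7e-06).

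The remaining genes of the 10 most abundant rose as well. NONMMUG011010, NONMMUG001355 and NONMMUG029360 had means of 33.2, 33.7 and 39.7 TPM at 16 dpp and changes from 14 dpp of 1.51, 2.56 and 2.39. NONMMUG019096 had 12.7 TPM ± 5.37 at 16 dpp (SD, n = 5) and a change of 2.81. The limma adjusted p of these 4 genes was 7.2e-05, 1.2e-05, 2.7e-05 and 1.5e-06. All 4 lay wholly above 14 dpp at 16 dpp.

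Of the 5 members with the highest levels at 12 dpp, NONMMUG017845 had a lower adult mean than its mean at 18 dpp and the other 4 a higher one. NONMMUG017845, with 7.94, 8.27, 11.1, 4.29 and 6.77 TPM, was the highest of all at that age and was at or near 0 at 8 and 10 dpp. It had 17.3, 9.42, 15.6, 17.0 and 13.3 TPM at 14 dpp, 27.5, 22.6, 21.7, 18.9 and 19.6 TPM at 16 dpp and 32.2 TPM ± 3.14 (SD, n = 5) at 18 dpp. In the adult samples it had 24.2, 17.1, 23.7 and 14.1 TPM, all below the lowest mouse of 18 dpp at 29.9 TPM. Its mice of 16 dpp did not overlap those of 14 dpp, but its change of 0.59 passed the threshold narrowly (SE 0.20, limma adjusted p = 0.042). The call was lost without mouse 2 or 5 of 12 dpp, without mouse 2, 3 or 7 of 14 dpp or without mouse 1, 2, 3 or 5 of 16 dpp, with changes from 0.45 to 0.63.

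NONMMUG011010, NONMMUG035738 and NONMMUG014826 were the other members of high level at 12 dpp in every mouse, with means of 5.49 TPM ± 1.35, 3.05 TPM ± 2.64 and 2.98 TPM ± 1.88 (SD, n = 5 each). NONMMUG014826 rose from 5.97 TPM ± 1.64 at 14 dpp to 27.1 TPM ± 9.28 at 16 dpp (SD, n = 5 each), a change of 1.99 (SE 0.28, limma adjusted p = 0.00012).

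NONMMUG018502 also had a high mean at 12 dpp, 3.38 TPM, but it rested on 2 mice. The 5 mice of 12 dpp had 7.74, 0.00, 0.00, 0.00 and 9.15 TPM, and the gene was listed at 0 in every mouse of 8, 10 and 14 dpp. At 16 dpp it had 9.05, 9.56, 8.15, 9.67 and 46.4 TPM, and at 18 dpp 90.0, 142, 102, 52.6 and 10.9 TPM. No mouse held a value between 0 and 7.74 TPM, and the mouse at 46.4 TPM set the mean of 16 dpp at 16.6 TPM, against 9.11 TPM without it. The adult samples were closer together, at 223, 202, 201 and 190 TPM. The gene was higher at 16 than at 14 dpp (limma adjusted p = 0.0009), and no fold is given because every mouse of 14 dpp was listed at 0.

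In all, 10 members were listed at 0 in every mouse of 12 dpp and 7 in every mouse of 14 dpp. Without these 7, the median change from 14 to 16 dpp was 1.62. For 3 members, named here after their values were seen, every mouse of 8, 10, 12 and 14 dpp was listed at 0. NONMMUG014657 then had 8.37, 1.48, 2.36, 4.29 and 8.04 TPM at 16 dpp and 66.1, 64.8, 50.1, 12.5 and 13.2 TPM at 18 dpp, and reached 189 TPM ± 9.61 (SD, n = 4) in the adult samples. NONMMUG002385 had 0.94, 0.00, 1.70, 1.51 and 2.01 TPM at 16 dpp and NONMMUG019456 0.74, 0.17, 0.00, 0.50 and 1.46 TPM, with adult means of 50.5 and 43.6 TPM. All 3 were called higher at 16 dpp (limma adjusted p = 3.5e-05, 0.003 and 0.030), the last from values of at most 1.46 TPM.

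The 7 members that did not pass the threshold between 14 and 16 dpp all had positive changes. They were NONMMUG001639, NONMMUG014827, NONMMUG033691, NONMMUG021514, NONMMUG012094, NONMMUG003444 and NONMMUG003474, named here because they missed the threshold, with limma adjusted p between 0.065 and 0.15. Of these, 5 belong to the 23 members that first had 1 TPM in every mouse at 18 dpp. NONMMUG012094 shows the spread among such genes: its mice of 16 dpp had 6.03, 1.14, 0.00, 0.56 and 11.4 TPM, a range that included all mice of 14 dpp. NONMMUG001639 had 0.16, 4.64, 7.02, 0.58 and 4.19 TPM at 16 dpp, so that mouse 1, the highest mouse for most members, was its lowest.

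Mice of one age differed in a shared way. At 16 dpp the summed level of the members was 1717, 991, 769, 848 and 1388 TPM in mice 1 to 5, and in 122 of the 150 genes mice 1 and 5 both lay above the other 3. At 18 dpp the sums were 4636, 4349, 4209, 2511 and 2104 TPM, and in 135 genes mice 4 and 5 lay below mice 1 to 3. The same orders held in 16.7% of the Ensembl genes at 16 dpp and 25.8% at 18 dpp; these orders were looked for after the sums were seen. The median coefficient of variation of the members was 40.8% at 16 dpp and 36.5% at 18 dpp, against 18.3% over 2481 and 21.4% over 2640 other NONCODE genes whose mean reached 3 TPM. The members were not held to this limit. Their means at 16 dpp began at 0.574 TPM, so the sets compared at that age differ in level. Among the 4 adult samples the members' median coefficient of variation was 8.78%, against 13.2% over 1973 other NONCODE genes with a mean of 3 TPM or more. Member means began at 10.9 TPM in the adult samples and at 6.85 TPM at 18 dpp. The sets compared there differ in level as well.

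The same mice stood apart in other lists. The summed level of 18 pachytene and later protein-coding genes was 3380, 1873, 1648, 1648 and 2697 TPM in mice 1 to 5 of 16 dpp and 8593, 8458, 8012, 4363 and 4169 TPM in those of 18 dpp. The Sertoli markers ran the other way, with 5445, 6282, 7606, 6406 and 5643 TPM at 16 dpp and 3654, 3577, 3734, 4740 and 4709 TPM at 18 dpp. The part of these differences between mice in the members' values was not tested. With mice 1 and 5 of 16 dpp left out, an alternative added after seeing the data, 135 members were still called higher at 16 than at 14 dpp, with a median change of 1.36.

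In the enriched adult pachytene and diplotene spermatocytes, every member was present. All 150 had at least 3 TPM in all 4 samples, as did 33.0% of the other NONCODE genes of the juvenile table. The share was 66.0% of the 453 other NONCODE genes under 1 TPM at 8 and 10 dpp. It was 80.3% of the piRNA precursors and 62.8% of the Ensembl genes. The members had been chosen for high levels at 18 dpp and these classes had not, so the shares come from unlike sets. Adult means ran from 10.9 to 384 TPM with a median of 42.3 TPM, and the summed level was 10161 TPM ± 235 (SD, n = 4), 1.02% of all transcripts. The other 5117 NONCODE genes summed to between 53916 and 60262 TPM there, below the 79083 to 96864 TPM of 18 dpp. The 2 tables were made separately, so levels are set side by side without a test.

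Relative to the adult mean, the median member stood at 0.726% in the mice of 12 dpp and 1.41% in those of 14 dpp, then at 10.5% in those of 16 dpp and 36.0% in those of 18 dpp. The adult mean was above the mean of 18 dpp in 146 members, by a median of 2.78-fold, and in 136 all 4 adult samples lay above all 5 mice of 18 dpp. These counts were not made over other genes, and the levels at 18 dpp had chosen the members. Whether the counts are particular to the members was therefore not tested. The 4 members without a higher adult mean were NONMMUG017845, NONMMUG008375, NONMMUG004005 and NONMMUG014827. The level of NONMMUG008375 was 36.5 TPM ± 4.25 in the mice of 18 dpp (SD, n = 5) against 30.7 TPM ± 1.22 in the adult samples (SD, n = 4), and that of NONMMUG004005 was 31.2 TPM ± 3.97 against 27.1 TPM ± 4.73. In both genes the ranges of the 2 groups overlapped, as they did in NONMMUG014827, which had the lowest adult mean of all members at 10.9 TPM ± 3.62 (SD, n = 4).

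The adult order of the members was not that of 18 dpp. Of the 10 highest at 18 dpp, 5 were also the 5 highest in the adult samples: NONMMUG035738, NONMMUG034231, NONMMUG019096 with 269 TPM ± 15.6, NONMMUG020166 with 265 TPM ± 16.9 and NONMMUG019095 with 264 TPM ± 20.1 (SD, n = 4 each). The last 3 differed by less than the spread among samples. At the lower end, NONMMUG014827 was followed by NONMMUG001392, NONMMUG003025, NONMMUG030897 and NONMMUG012172, with 11.8, 12.7, 13.2 and 14.0 TPM, and these neighbours did not differ beyond their spread.

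The ratio of adult to juvenile level was set beside the age of first presence. The median ratio of the adult mean to the mean of 16 dpp was 3.76 for the 11 members first present in every mouse at 12 dpp, 5.60 for the 16 of 14 dpp, 9.64 for the 100 of 16 dpp and 28.6 for the 23 of 18 dpp. The median adult level ran in the opposite direction, from 98.6 TPM in the first group to 71.5, 40.1 and 32.3 TPM. The groups were formed on the level at juvenile ages, which the ratio also holds, so these medians are a description.

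**Figure D5:**
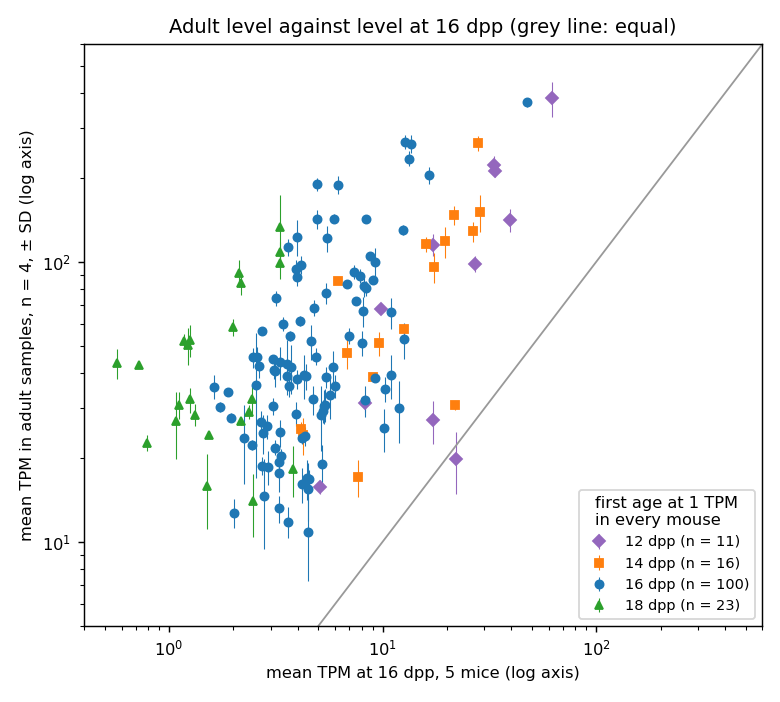
Mean TPM of each member in the 4 adult samples (± SD) against its mean at 16 dpp (5 mice), both on log axes, marked by the first age at which every mouse had 1 TPM or more. All points but that of NONMMUG017845 (22.1 TPM at 16 dpp, 19.8 TPM adult) lie above the grey line of equal levels, and the 23 genes first present at 18 dpp have the highest median ratio of adult to 16 dpp level, 28.6, with ratios from 4.78 to 75.9 that overlap those of the 100 genes first present at 16 dpp (2.42 to 38.5).

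The catalogue listed 1 to 3 transcripts for most members. A single transcript was listed for 82 of the 150 (54.7%), against 62.9% of the other NONCODE genes, 2 transcripts for 36, 3 for 17 and 4 or more for 15. The most were 15 in NONMMUG011010, 14 in NONMMUG003124 and 8 in NONMMUG035738. Among the 68 members with more than 1 transcript, the leading transcript held a median of 78.3% of the gene's TPM at 16 dpp, and in 35 it was the same in all 10 mice of 16 and 18 dpp. In NONMMUG003124 1 of the 14 transcripts, NONMMUT004852, held 93.6% at 16 dpp and led in all 10 mice, whereas in NONMMUG011010 the leading one, NONMMUT017581, held 31.3% and led in 4. In NONMMUG034231, NONMMUT055130 led in all 10 mice with 50.0%. How reads were divided among transcripts that share sequence is an estimate of the quantifier, and so is a split between near-identical genes.

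Some members bear consecutive catalogue numbers. There were 14 such pairs, formed by 27 members. NONMMUG019095 and NONMMUG019096 had 72.6 TPM ± 36.6 and 72.6 TPM ± 35.1 at 18 dpp (SD, n = 5 each) and 264 and 269 TPM in the adult samples, with a Pearson r of 0.98 over the 15 mice of 12, 14 and 16 dpp. NONMMUG014614 and NONMMUG014615 had r = 0.99 and levels of 13.1 and 26.6 TPM at 18 dpp. Over the 14 pairs r ran from 0.58 to 0.99, in mice that share the age trend. NONMMUG014826 and NONMMUG014827, also a pair, differed in level, with 27.1 TPM ± 9.28 against 4.49 TPM ± 1.62 at 16 dpp (SD, n = 5 each). Whether paired entries lie next to each other, or share sequence, was not analysed here.

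The factors of the piRNA pathway gave a background of meiotic genes in the same mice. Of 20 piRNA factors, 15 were higher at 16 than at 14 dpp and 0 were lower, with a median change of 0.56. Tdrd6, a tudor protein of the chromatoid body, rose by 3.84 (SE 0.27) and Piwil1, the pachytene PIWI protein, by 2.60 (SE 0.25), whereas Mybl1, the transcription factor that activates pachytene piRNA precursors, had a change of 0.27 (SE 0.13, limma adjusted p = 0.13) and a mean of 20.1 TPM at 12 dpp already. Piwil4, the PIWI protein of fetal germ cells, had a change of -0.21 and did not pass the test (limma adjusted p = 0.17).

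Of 18 pachytene and later protein-coding genes, 16 were tested, 15 were higher at 16 dpp and 0 were lower, with a median change of 2.06. Spag6 was tested and not called, with a change of -0.09. Hist1h1t and Acrv1 were not in the juvenile gene table and were not tested. Their means were 0.368 and 0.134 TPM at 14 dpp and 0.492 and 0.118 TPM at 16 dpp. Ldhc, the testis form of lactate dehydrogenase, rose by 3.32 (SE 0.35), and Adam3, a sperm surface protein, by 3.69 (SE 0.34). The member sum and the sum of these 18 genes rose 5.87-fold and 4.59-fold from 14 to 16 dpp, and stood 2.85-fold and 2.80-fold higher in the adult samples than at 18 dpp. The sum of the 18 genes rested largely on Ldhc, Hspa2 and Meig1, with 760, 408 and 400 TPM of 2249 TPM at 16 dpp. Single genes differed: from 14 to 16 dpp Tbpl1 went from 49.7 to 83.4 TPM and Adam3 from 1.22 to 31.4 TPM. Among the cell type markers, 5 of 8 Sertoli and 4 of 6 spermatogonial genes fell between 14 and 16 dpp and Id4, a spermatogonial marker, rose by 0.86. Of the 6 Leydig, 5 peritubular, 5 red blood cell and 4 endothelial genes none passed the test, nor did Spaca1, the 1 spermatid gene tested, and of 5 macrophage genes Cd14 rose by 0.50.

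The Ensembl genes whose course was most like the mean of the members, by Pearson r of log2(TPM + 1) over the 15 mice of 12, 14 and 16 dpp and among 12940 genes with at least 3 TPM at 16 dpp, were Dnaaf1, Spag16, Sord, Ift172 and Phf7. Each had an r above 0.99, and the points share the age trend and the libraries. Dnaaf1, an assembly factor of axonemal dynein, went from 13.7 TPM ± 2.01 at 14 dpp to 74.8 TPM ± 28.7 at 16 dpp (SD, n = 5 each), with 930 TPM ± 43.6 (SD, n = 4) in the adult samples. Spag16, a protein of the sperm axoneme, had 3.04 TPM at 14 dpp and 278 TPM in the adult samples. Ift172, of intraflagellar transport, had 20.4, 49.4 and 255 TPM at 14 dpp, 16 dpp and in the adult samples. Sord, the sorbitol dehydrogenase gene, had 29.8, 171 and 1893 TPM in the same order, and Phf7, a histone reader of male germ cells, 55.5, 302 and 2782 TPM. Among the 76 piRNA precursors, the 3 most alike were pi-12-qE-7089 with 2.85 TPM ± 0.862 at 16 dpp, pi-14-qA3-3095 with 4.64 TPM ± 1.70 and pi-7-qD1-16444 with 0.794 TPM ± 0.224 (SD, n = 5 each).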

How the data were processed

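Poly-A RNA of 28 juvenile germ-cell samples and 4 adult enriched samples was sequenced by the authors as 100 bp paired-end TruSeq reads, with 2 lanes merged per library; strand use was not given in the sources used here. Reads were aligned with Bowtie 1.0.0 and quantified with RSEM 1.2.8 on a combined mm10 transcriptome of Ensembl release 75, NONCODE v4 and 214 piRNA precursors. The authors deposited TPM values per transcript (juvenile) and per gene (adult). The deposited juvenile gene table holds TPM on another scale, exp(log2(TPM + 1)) - 1, and was converted back; its values then equalled the summed transcripts within 0.2 TPM in every mouse for 20288 of 20368 genes, the members within 0.02 TPM. It keeps genes that reach 3 TPM in at least 1 mouse, so members entered it through their late levels. Its column naming a meiotic substage per gene is the authors' result and was not used.

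The 15 mice of 12, 14 and 16 dpp were fitted together with limma 3.58.1 (R 4.3.3; trend and moderated variance) on log2(TPM + 1) over all 20368 genes, with no covariate and Benjamini-Hochberg adjustment; adjusted p under 0.05 was called. The script was tested on simulated data. Changes were planted only in genes with a mean log2(TPM + 1) above 1 at 14 dpp, so members below that level were not covered. TPM keeps no depth, so precision rests on the number of mice. Summed levels of marker lists use the transcript table. lincRNA types come from GENCODE M21, matched by gene identifier.

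The members, gene lists and tests were chosen with earlier results of these data known. Named members are the 10 highest at 18 dpp, the 5 of largest change from 14 to 16 dpp among those called and without overlap, the 5 highest at 12 dpp, the 5 highest and 5 lowest in adults, 3 on each side of rank 150 and the 3 with most transcripts; no member had a negative change. Alternatives changed the pseudocount, a filter on low values, the mice fitted, the scaling, the variance prior, the input table and the replicate block, and left out each mouse. NONCODE positions and sequences were not used here.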

Additional observations from a re-analysis of the deposited data

Results flagged for a closer look

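Among 105 groups of 4 or 5 samples, made of the summed level and the named members at each age, 9 held a sample whose gap to its nearest neighbour was large for the range of the group; chance flags about 1 in 20 groups, and many of these groups share mice. The gap is given as a share of the range.

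At 12 dpp, mouse 3 was the high sample in 4 genes. NONMMUG035738 had 7.75 TPM there against at most 2.15 TPM elsewhere (gap 0.887; mean 1.88 TPM without it), NONMMUG014826 had 6.23 against 2.85 TPM (gap 0.719) and NONMMUG019095 0.80 against 0.31 TPM (gap 0.71). NONMMUG003474 was listed at 0 in 4 mice and at 0.70 TPM in the fifth (gap 1.0). The summed level of all members was also highest in this mouse, at 145 TPM against 67.3 to 89.9 TPM.

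At 16 dpp, NONMMUG018502 had 46.4 TPM in mouse 5 against 9.67 TPM or less in the others (gap 0.960; mean 9.11 TPM without it). In mouse 1, NONMMUG001355 had 56.4 against 33.0 TPM (gap 0.717) and NONMMUG003474 6.92 against 2.24 TPM (gap 0.824; mean 1.75 TPM without it, 2.78 TPM with it). NONMMUG030897 had one high mouse at 14 dpp, 1.56 against 1.05 TPM (gap 0.718), and one high adult sample, 15.4 against 12.7 TPM (gap 0.868).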

How the results depend on the processing

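The number of members higher at 16 than at 14 dpp was 143 and stayed within 125 to 145 under every planned change of setting and within 141 to 146 with single mice left out; at the low end, the filter on low values left 127 members to test. The median change of 1.59 ran from 1.48 to 1.77 without single mice and was 2.68 with a pseudocount of 0.1, which by construction enlarges changes near 0. From 12 to 14 dpp, 0 members were called except with all 28 mice in the model (10); the median change of 0.33 was 0.90 with a pseudocount of 0.1 and 0.18 with quantile normalization, the cause of which was not tested, and ran from 0.29 to 0.38 without single mice. First presence depends on the limit: 11, 16, 100 and 23 members at 12, 14, 16 and 18 dpp became 2, 5, 55 and 78 with 3 TPM in every mouse and 22, 35, 90 and 3 with a mean of 1 TPM. Of the members, 110 stayed with a limit of 0.5 TPM at 8 and 10 dpp, 144 with the median at 18 dpp, 145 to 148 without single mice of 18 dpp and 150 from summed transcripts. The adult count of 150 did not move under the 2 other limits or without single samples.

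Mice with the same number did not deviate together (11 pairs by title, r from -0.12 to 0.16), so the numbers were not treated as a pairing; with a replicate block by title number 127 members were called and by description number 145. For the 20 named members no change turned negative in 498 fits and 473 calls did not move, 18 were lost and 7 were gained. NONMMUG003474 was called without mouse 7 of 14 dpp (1.21) or mouse 3 of 16 dpp (1.12), and NONMMUG014827 without mouse 1 of 14 dpp (1.08) or mouse 3 of 16 dpp (1.08). Both were called with all 28 mice in the model, and NONMMUG014827 also with the block by description number. The lost calls were those of NONMMUG017845, NONMMUG014424 and NONMMUG003025. NONMMUG014424 and NONMMUG003025 lost theirs with quantile normalization, with the block by title number and without mice 1 and 5 of 16 dpp. NONMMUG014424 also lost it with all 28 mice.

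Limits: TPM holds no depth, mice of 8 dpp number 3, levels under 1 TPM rest on unknown read numbers, and the adult table was made separately.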
